A study of Homo sapiens with 12 samples.

Results

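The genes described here are 32 genes of glycolysis and of the response to low oxygen, chosen as a list of names, and no value entered the rule, though the list was drawn up with earlier results of these data known. They comprise 3 transporters of glucose or lactate, 17 glycolytic enzymes, 2 regulators of the pathway and 10 other genes that hypoxia induces, and all 32 were found among the 60669 gene IDs of the count table, each with 1 ID. RNA was sequenced from 6 established cell lines that the study names as ovarian cancer (OC) lines. Each was given 8 µM quinacrine (QC), an antimalarial drug, or vehicle for 6 h. The chemosensitive lines were HeyA8, SK-OV-3 and OV2008. The chemoresistant lines were HeyA8-MDR, which the study's methods call carboplatin-resistant, SK-OV-3-TR, which is taxol-resistant, and C13, a cisplatin-resistant derivative of OV2008. Each line gave 1 vehicle and 1 QC library, so the 4 groups hold 3 lines each and 1 library stands for each line and treatment. Lines are the replicates of every test below, and a p-value measures the spread between lines, not between cultures of a line. The 6 lines form 3 parent-derivative pairs, and the test over all 6 lines counts both lines of a pair as separate replicates. As the lines of a pair are related, that test may rest on fewer than 6 independent units. Both lines of the HeyA8 pair were grown in high-glucose DMEM and the other 4 in RPMI-1640. For levels, and for differences between pairs in the QC effect, the medium and the HeyA8 pair therefore cannot be told apart.

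Glycolysis splits glucose into pyruvate, and proliferating tumour cells often run it fast and export the lactate that lactate dehydrogenase makes from pyruvate. In low oxygen the transcription factor subunit HIF1A escapes hydroxylation by the EGLN prolyl hydroxylases and degradation by the VHL ubiquitin ligase, and it raises transcription of glucose transporters, glycolytic enzymes and genes outside the pathway such as CA9 and VEGFA. Several of these genes also answer to other transcription factors, among them MYC, which drives glycolytic enzymes in dividing cells. The genes therefore form 2 sets, glycolytic genes and hypoxia-induced genes of other function, and each set was followed in each line.

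HIF1A with its partner binds DNA at a short core, ACGTG or GCGTG. The sequences below are the 250 bases before the transcription start of 5 genes on which the results turn, with every ACGTG and GCGTG, on either strand, in capitals. They come from RefSeq (GRCh38.p14) and run 5′ to 3′ on the strand of the gene. KDM3A lies at chr2:86441121-86441370 on the plus strand, ANKRD37 at chr4:185396591-185396840 on the plus strand and BNIP3 at chr10:131981924-131982173 on the minus strand, and these are 3 hypoxia-induced genes that were higher with QC in 5 of 6 lines. ENO2, at chr12:6914330-6914579, and PFKL, at chr21:44299803-44300052, both on the plus strand, were glycolytic genes that were lower with QC in both OV2008 and C13.
KDM3A: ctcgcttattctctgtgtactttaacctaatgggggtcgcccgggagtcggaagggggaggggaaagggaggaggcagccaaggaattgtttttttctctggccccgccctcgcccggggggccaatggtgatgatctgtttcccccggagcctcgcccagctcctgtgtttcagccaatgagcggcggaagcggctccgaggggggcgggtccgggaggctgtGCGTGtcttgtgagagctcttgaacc
ANKRD37: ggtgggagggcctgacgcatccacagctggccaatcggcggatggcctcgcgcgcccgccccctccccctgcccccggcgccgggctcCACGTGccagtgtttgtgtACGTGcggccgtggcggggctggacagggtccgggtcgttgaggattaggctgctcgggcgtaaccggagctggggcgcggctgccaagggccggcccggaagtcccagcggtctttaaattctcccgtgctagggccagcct
BNIP3: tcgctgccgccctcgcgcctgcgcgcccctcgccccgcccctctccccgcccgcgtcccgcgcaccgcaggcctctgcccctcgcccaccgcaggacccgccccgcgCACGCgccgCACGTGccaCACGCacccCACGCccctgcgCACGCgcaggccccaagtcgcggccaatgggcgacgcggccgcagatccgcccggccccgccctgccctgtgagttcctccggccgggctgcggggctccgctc
ENO2: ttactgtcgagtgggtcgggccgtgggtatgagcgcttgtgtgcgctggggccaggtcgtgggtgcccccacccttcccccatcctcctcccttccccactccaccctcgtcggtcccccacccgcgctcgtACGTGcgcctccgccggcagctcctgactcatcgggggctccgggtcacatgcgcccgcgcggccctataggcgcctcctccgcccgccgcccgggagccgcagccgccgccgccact
PFKL: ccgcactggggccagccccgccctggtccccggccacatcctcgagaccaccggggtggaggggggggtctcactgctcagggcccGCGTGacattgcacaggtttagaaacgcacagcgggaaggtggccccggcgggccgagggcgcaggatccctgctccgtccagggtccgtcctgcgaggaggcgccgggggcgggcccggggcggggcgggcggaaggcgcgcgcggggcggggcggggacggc
Of the 32 genes, 29 had such a window, and 12 of them held ACGTG, 10 held GCGTG and 18 held either, against 18.7%, 31.9% and 43.1% of the 27305 windows of all genes. CACGTG, which other factors bind as an E-box, reads as ACGTG on both strands and was counted on each: the capitals at ANKRD37 and BNIP3 each include 1 such block. The BNIP3 window held 2 ACGTG and 4 GCGTG, the ANKRD37 window 3 ACGTG, and KDM3A and PFKL 1 GCGTG each, so the motif was present both in genes higher and in genes lower with QC. A match of these letters is a description of the window and not of a bound site.

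The libraries held between 17782556 and 30585059 counts, of which the 32 genes took between 1.369% and 3.324%. Levels are given as normalized CPM (CPM, counts relative to the library total after TMM scaling), and changes per line as log2 ratios of QC over vehicle with a prior count of 2. All 32 genes passed the filter on low counts in which 18720 genes were kept. The OC marker PAX8 stood between 325 and 480 normalized CPM with vehicle in the HeyA8 and SK-OV-3 pairs, but at 7.56 in OV2008 and 19.6 in C13, where the squamous markers TP63 (315 and 108) and KRT5 (11212.5 and 3059.5) were high. In these markers OV2008 and C13 are unlike their ovarian label, and their origin was not tested. The ovarian marker WT1 was at most 4.79 in every library. MUC16, the other ovarian marker, did not follow PAX8. With vehicle it was at 10.9 in SK-OV-3, 2.35 in OV2008 and 1.4 in C13, against 0.177 in HeyA8, 0 in HeyA8-MDR and 0.236 in SK-OV-3-TR. The leukocyte markers PTPRC and CD3E were at most 0.266 and CD68 at most 0.665. The HeyA8 QC library lay between both lines of its pair: over the 1575 genes at least 4-fold apart between HeyA8 and HeyA8-MDR with vehicle, it lay at a median of 43.8% of the way from HeyA8 to HeyA8-MDR. In the other 5 lines the QC library lay between 1.65% and 21.3% of the way to the partner line's vehicle library. Of the 11 genes of the 32 that were at least 2-fold apart between those vehicle libraries, 10 had a HeyA8 QC level between both. The median over all 11 was 57.9% of the way. Values without HeyA8 are therefore given beside each named gene with an unadjusted p under 0.05 over all lines, and what the position of that library contributes was not tested.

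Under vehicle, the lines carried different isoforms of the same steps. Levels were compared per kb of transcript within each isozyme set. HK1, the constitutive hexokinase that traps glucose as its phosphate, made up between 58.8% and 91.8% of HK1 and HK2 over the 12 libraries, and HK2, the inducible form, reached 41.2% in the QC library of SK-OV-3-TR. PFKP, the platelet form of the committing enzyme phosphofructokinase, led its set at between 45.2% and 70.5%, and PFKM, the muscle form, was at 2.16% in SK-OV-3 with vehicle against between 12.1% and 21.4% in the other 5 lines. ALDOA, the ubiquitous aldolase, was at least 82.2% of its set in 5 lines, but ALDOC, the brain form, made up 51.7% of the set in SK-OV-3-TR with vehicle and 46.8% with QC. ENO1 was at least 93.4% of the enolases in every library. LDHA, which favours lactate formation, ranged from 57.2% in C13 with vehicle to 90.9% in SK-OV-3 with vehicle, with LDHB making up the rest. SLC2A3, the high-affinity glucose transporter GLUT3, made up between 14.9% and 19.5% of SLC2A1 and SLC2A3 in the HeyA8 pair and at most 0.181% elsewhere.

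**Figure D1:**
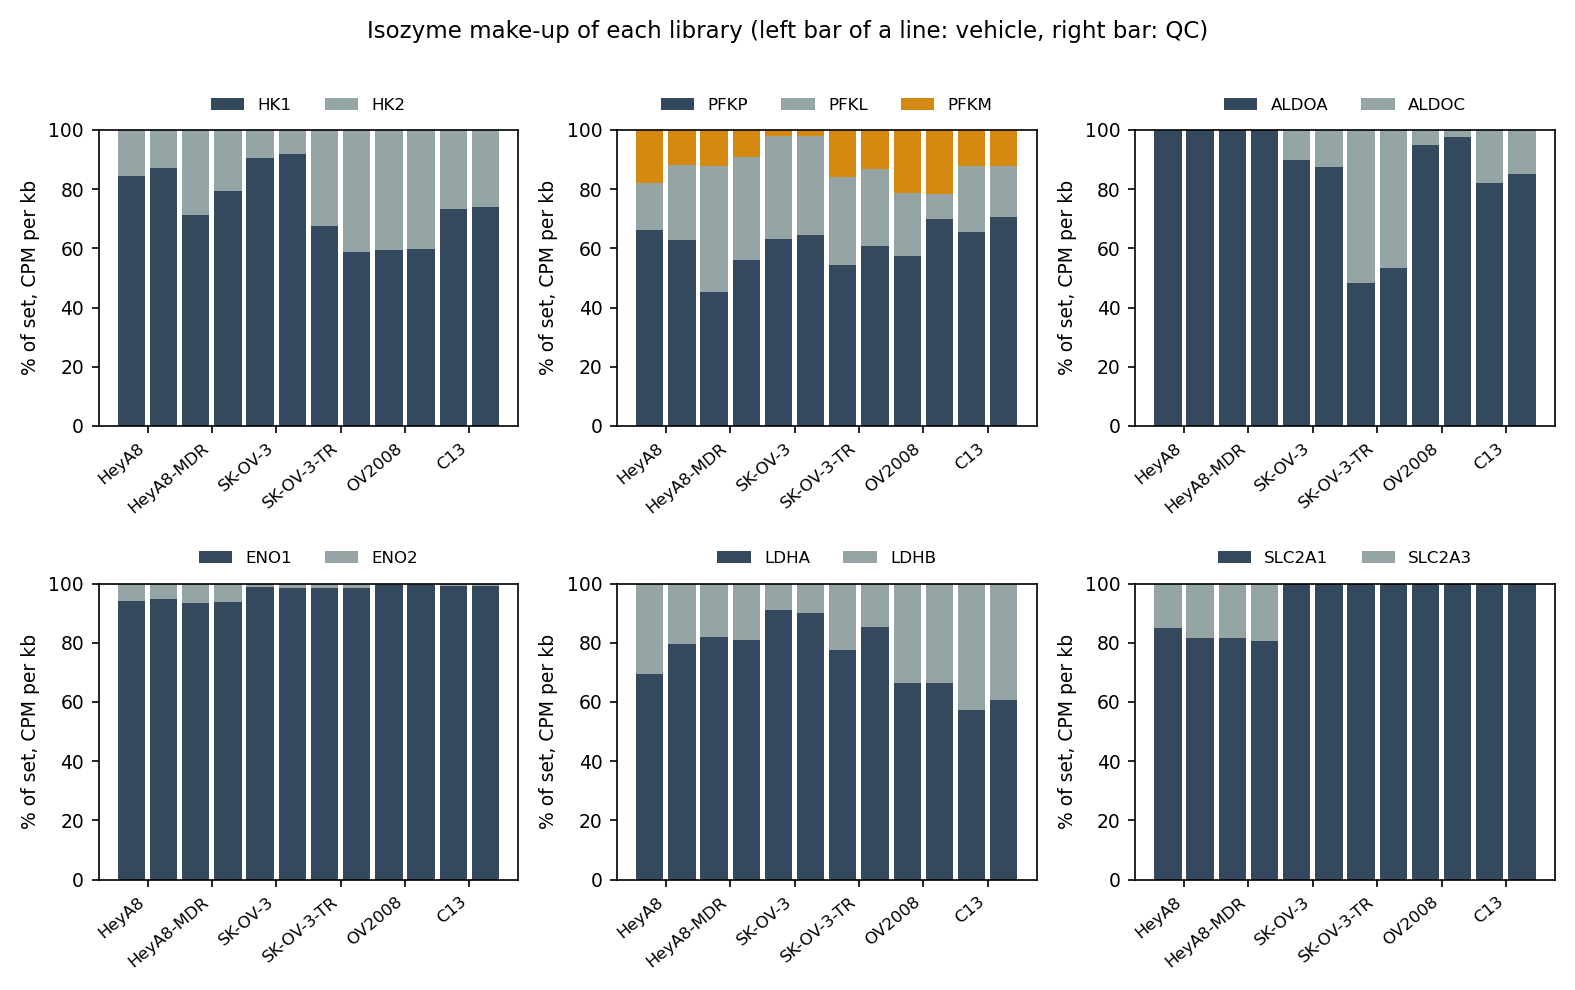
Share of each isozyme in its set, as percent of normalized CPM per kb, in the 12 libraries (left bar of each line vehicle, right bar QC). ALDOC reaches 51.7% only in SK-OV-3-TR, and SLC2A3 is visible only in HeyA8 and HeyA8-MDR.

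The widest ranges between lines with vehicle were those of SLC2A3, ALDOC, CA9 and NDRG1. SLC2A3 was at 104 normalized CPM in HeyA8 and 248 in HeyA8-MDR but between 0.167 and 0.566 in the other 4 lines, a log2 range of 9.94. ALDOC spanned 7.9 on the log2 scale, from 0.364 normalized CPM in HeyA8-MDR and 0.399 in HeyA8 through 11.2 in OV2008, 13.5 in SK-OV-3 and 31.4 in C13 to 107 in SK-OV-3-TR. CA9, a cell-surface carbonic anhydrase that hypoxia induces, was low everywhere, with 0 counts in HeyA8 and at most 6.59 normalized CPM, in SK-OV-3-TR. Low levels of CA9 were thus shared by all lines, whereas SLC2A3 and ALDOC separated them. NDRG1, a stress-induced growth-arrest gene, was at 1837.5 in HeyA8-MDR, 607 in HeyA8 and 273 in SK-OV-3, and lower at 187 in OV2008, 31.8 in C13 and 27.1 in SK-OV-3-TR. SLC16A3, the lactate exporter MCT4, was at 10.9 in SK-OV-3-TR against 411 in its parent SK-OV-3 and between 121 and 292 in the others. At the other end, PFKP and ENO1 had the narrowest vehicle ranges, 0.55 and 0.76 on the log2 scale.

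The comparison of resistant with sensitive lines under vehicle asks whether chemoresistant lines differ at baseline from their parents. ENO2, the neuronal enolase, was higher in all 3 resistant lines than in their parents, at 376 against 199 normalized CPM in HeyA8-MDR, 71.5 against 43.6 in SK-OV-3-TR and 35.5 against 18.1 in C13. Its log2 difference was 0.87 (SE 0.262, unadjusted p = 0.016, adjusted p = 0.994 by edgeR's quasi-likelihood test). ALDOC had a log2 difference of 1.66 (SE 0.654, unadjusted p = 0.0442, adjusted p = 0.994 by the same test), with 107 against 13.5 in SK-OV-3-TR and 31.4 against 11.2 in C13, but 0.364 against 0.399 in HeyA8-MDR. ENO2 missed the threshold without the HeyA8 pair (0.83, unadjusted p = 0.0962) or the OV2008 pair (0.84, unadjusted p = 0.0672), and ALDOC without the SK-OV-3 pair (0.85, unadjusted p = 0.246) or the OV2008 pair (1.81, unadjusted p = 0.108), each fit then resting on 2 pairs. These 2 of 32 genes were the ones with an unadjusted p under 0.05, both higher, where 1.96% of all genes were higher and 1.75% lower at that threshold. No gene of all 18720 passed adjustment (0%) with edgeR, at 366 higher and 328 lower by unadjusted p, and DESeq2 called 47. Not every gene differed in the same direction in the 3 pairs: LDHA was higher by 1.57 on the log2 scale in HeyA8-MDR than in HeyA8, but the same log2 ratio was -0.95 for SK-OV-3-TR and -0.78 for C13.

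Over all 6 lines, QC was compared with vehicle to ask which genes moved in common. By edgeR's quasi-likelihood test with the line as block, 6 of the 32 genes (18.8%) were higher with QC at an unadjusted p under 0.05 and 0 were lower, against 7.99% of all genes higher and 7.18% lower. They were KDM3A, BNIP3, NDRG1, ANKRD37, ADM and SLC2A1, 5 hypoxia-induced genes outside glycolysis and 1 glucose transporter. None of these passed adjustment over all genes, where edgeR called 0 of 18720 genes (0%), with 1495 higher and 1345 lower by unadjusted p, and DESeq2 called 518, none of the 32. None of the 17 glycolytic enzymes had an unadjusted p under 0.05 here. The median log2 change of the 32 genes was 0.06, beside 0 for all genes. In bulk libraries a change in how many cells express a gene and a change per cell cannot be told apart.

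KDM3A (ENSG00000115548.17), a histone H3 lysine demethylase, went from 106 normalized CPM with vehicle to 150 with QC in HeyA8, from 110 to 241 in HeyA8-MDR, from 101 to 142 in SK-OV-3-TR, from 67.7 to 96.6 in OV2008 and from 45 to 63.2 in C13, and from 174 to 156 in SK-OV-3. It was higher with QC in 5 of 6 lines, and 4 of these 5 had a log2 change between 0.49 and 0.51. Its log2 fold change was 0.49 (SE 0.146, unadjusted p = 0.00526, adjusted p = 0.176 by edgeR's quasi-likelihood test), and 0.49 without HeyA8 (unadjusted p = 0.0111). BNIP3 (ENSG00000176171.11), a mitochondrial protein that marks mitochondria for autophagy, went from 141 to 324 in HeyA8, from 397 to 611 in HeyA8-MDR, from 48.5 to 104 in SK-OV-3-TR, from 44.4 to 68.6 in OV2008, from 92.5 to 98.1 in C13 and from 91.5 to 79.3 in SK-OV-3. SK-OV-3 was again the line that did not share the direction. The log2 fold change of BNIP3 was 0.57 (SE 0.178, unadjusted p = 0.00704, adjusted p = 0.186, same test), and 0.44 without HeyA8 (unadjusted p = 0.0265). BNIP3 has 44 pseudogenes in the table, which held counts equal to 0.875% of its own.

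NDRG1 was higher with QC in every line but OV2008, where it went from 187 to 159 normalized CPM. In HeyA8 it went from 607 to 1364, in HeyA8-MDR from 1837.5 to 2551.8, in SK-OV-3 from 273 to 311, in SK-OV-3-TR from 27.1 to 37.6 and in C13 from 31.8 to 54.7. Its log2 fold change of 0.47 (SE 0.165, unadjusted p = 0.0136, adjusted p = 0.213 by edgeR's quasi-likelihood test) was 0.33 without HeyA8 (unadjusted p = 0.0523), so the call by unadjusted p rested on HeyA8. ANKRD37, an ankyrin-repeat protein, was a low-level gene with between 21 and 350 counts per library. It went from 5.76 to 18.6 normalized CPM in SK-OV-3-TR and from 1.18 to 3.09 in OV2008, from 2.22 to 2.56 in HeyA8, from 2.7 to 3.85 in HeyA8-MDR, from 1.83 to 2.45 in C13 and from 1.55 to 1.32 in SK-OV-3. The log2 fold change of ANKRD37 was 0.69 (SE 0.281, unadjusted p = 0.0304, adjusted p = 0.277, same test), and 0.79 without HeyA8 (unadjusted p = 0.022). It missed the threshold without SK-OV-3-TR (0.45, unadjusted p = 0.166) and without OV2008 (0.57, unadjusted p = 0.079).

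SLC2A1, the main glucose transporter GLUT1, went from 522 to 735 normalized CPM in HeyA8, from 978 to 1233 in HeyA8-MDR, from 548 to 625 in SK-OV-3 and from 214 to 369 in SK-OV-3-TR. In the OV2008 pair it stayed at 219 and 217 in OV2008 and at 283 and 279 in C13, so its 4 higher lines were those of the other pairs. The log2 fold change was 0.29 (SE 0.132, unadjusted p = 0.0446, adjusted p = 0.317 by edgeR's quasi-likelihood test), and it missed the threshold without HeyA8 (0.25, unadjusted p = 0.108), HeyA8-MDR (0.27, unadjusted p = 0.0899), SK-OV-3 (0.31, unadjusted p = 0.06) or SK-OV-3-TR (0.20, unadjusted p = 0.155). ADM, the vasodilator peptide adrenomedullin, went from 24.3 to 42.7 in HeyA8-MDR, from 44.5 to 85.8 in SK-OV-3-TR, from 28.8 to 35.1 in SK-OV-3 and from 94 to 106 in OV2008, and from 42.4 to 41.3 in HeyA8 and 63 to 58.5 in C13. Its log2 fold change was 0.34 (SE 0.155, unadjusted p = 0.0458, adjusted p = 0.32, same test), 0.42 without HeyA8 (unadjusted p = 0.0255), and it missed the threshold without SK-OV-3-TR (0.22, unadjusted p = 0.179), without HeyA8-MDR (0.24, unadjusted p = 0.159) and without SK-OV-3 (0.35, unadjusted p = 0.0694). Without HeyA8, 4 of the 32 genes had an unadjusted p under 0.05, and without SK-OV-3-TR 3 did, KDM3A, BNIP3 and NDRG1.

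**Figure D2:**
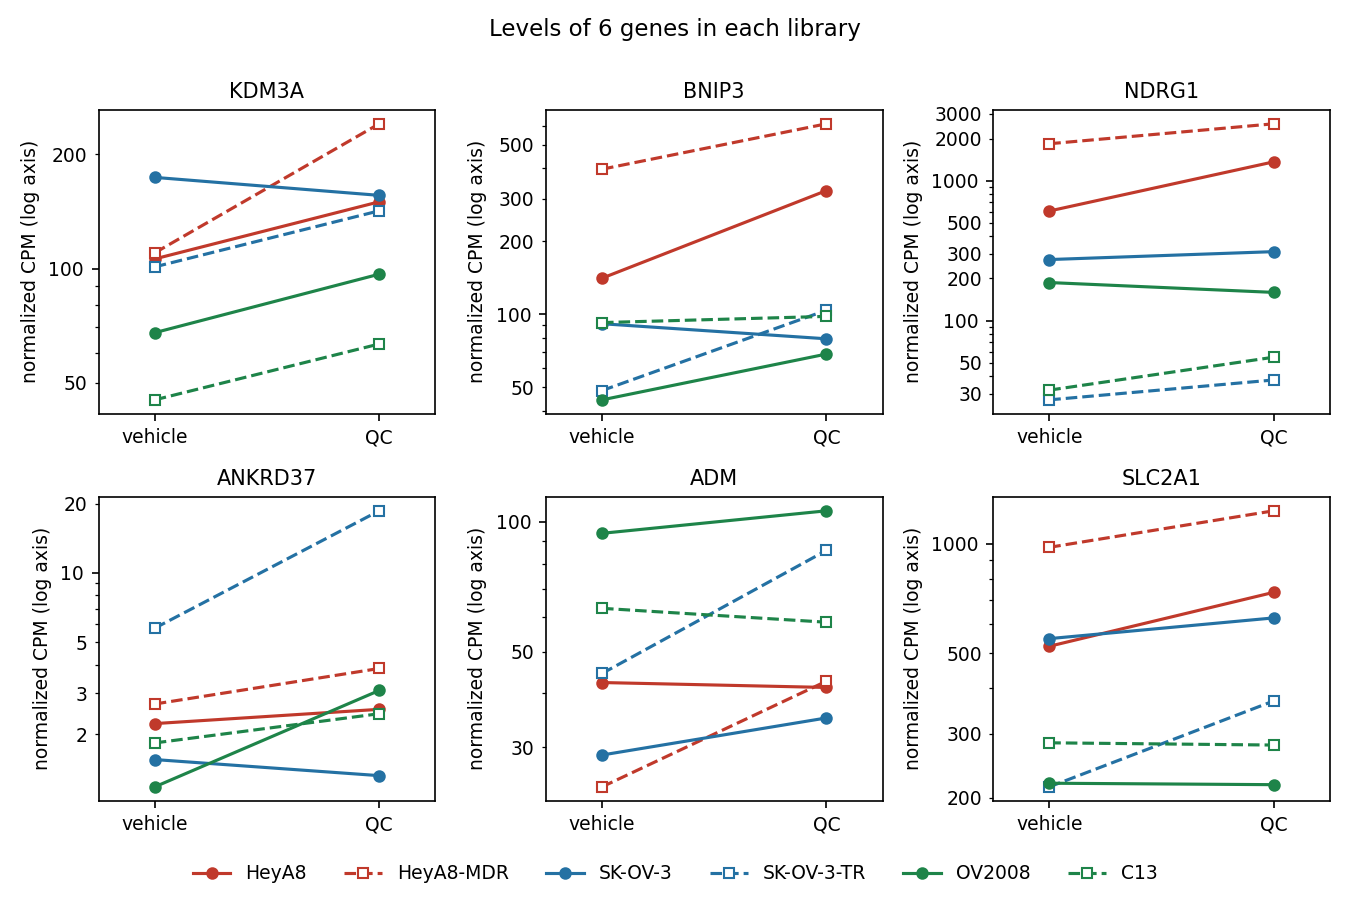
Normalized CPM (log axis) with vehicle and with QC in each of the 6 lines, solid for sensitive and dashed for resistant lines, colours for the parent-derivative pairs. KDM3A, BNIP3, NDRG1 and ANKRD37 are higher with QC in 5 of 6 lines, ADM and SLC2A1 in 4. In each of these genes the range between lines with vehicle exceeds the largest change with QC.

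The next genes by p were P4HA1, the collagen prolyl 4-hydroxylase subunit, and PFKFB3, which makes the fructose bisphosphate that activates phosphofructokinase. P4HA1 had a log2 fold change of 0.32 (SE 0.154, unadjusted p = 0.0596), with levels of 82.6 and 170 normalized CPM in HeyA8, 255 and 350 in HeyA8-MDR, 176 and 145 in SK-OV-3, 151 and 194 in SK-OV-3-TR, 48.6 and 61.1 in OV2008 and 62.1 and 62.6 in C13, vehicle first. Without HeyA8 its value was 0.18 (unadjusted p = 0.229), and it passed the threshold without SK-OV-3 (0.44, unadjusted p = 0.0148) and without C13 (0.37, unadjusted p = 0.0472). PFKFB3 had a log2 fold change of 0.26 (SE 0.135, unadjusted p = 0.0757) and was lower with QC in SK-OV-3 alone, at 91.6 and 78.6. Without SK-OV-3 its value was 0.35 (unadjusted p = 0.0286) and without HeyA8-MDR 0.14 (unadjusted p = 0.299). In the other lines PFKFB3 stood at 85.8 and 103 in HeyA8, 76.7 and 133 in HeyA8-MDR, 57.4 and 80.3 in SK-OV-3-TR, 172 and 177 in OV2008 and 135 and 156 in C13, so OV2008 and C13 held its highest levels.

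Sensitive and resistant lines were then fitted each with their own QC term. In sensitive lines 0 of the 32 genes had an unadjusted p under 0.05, against 3.55% of all genes higher and 3.04% lower, and no gene passed adjustment (0%) by edgeR's quasi-likelihood test, with 665 higher and 569 lower by unadjusted p and 31 called by DESeq2. PFKFB4, the sister enzyme of PFKFB3, came nearest at -0.54 (SE 0.255, unadjusted p = 0.0581), from 25.9 to 20.3 normalized CPM in HeyA8, from 16.5 to 14.4 in SK-OV-3 and from 8.18 to 3.75 in OV2008. It was lower in all 3 sensitive lines, most in OV2008, where it had 146 and 85 counts. Without OV2008 the value was -0.27 (unadjusted p = 0.364), without HeyA8 -0.64 (unadjusted p = 0.0771) and without SK-OV-3 -0.73 (unadjusted p = 0.0394). BNIP3 followed at 0.55 (SE 0.268, unadjusted p = 0.0653), and its value was 0.21 without HeyA8 (unadjusted p = 0.481) and 0.91 without SK-OV-3 (unadjusted p = 0.00587).

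In resistant lines 6 of the 32 genes (18.8%) were higher at an unadjusted p under 0.05 and 0 lower, against 3.43% of all genes higher and 2.59% lower, and again no gene passed adjustment (0%) by edgeR or DESeq2, with 643 higher and 485 lower by unadjusted p in edgeR. They were KDM3A, PFKFB3, ADM, NDRG1, BNIP3 and ANKRD37. KDM3A had a log2 fold change of 0.70 (SE 0.205, unadjusted p = 0.00505, adjusted p = 0.816 by edgeR's quasi-likelihood test) and PFKFB3 one of 0.49 (SE 0.184, unadjusted p = 0.0201, adjusted p = 0.816). Without HeyA8-MDR KDM3A was at 0.48 (unadjusted p = 0.0711) and PFKFB3 at 0.33 (unadjusted p = 0.168). The count rested on single lines: without HeyA8-MDR 0 of the 32 genes had an unadjusted p under 0.05 in resistant lines, without SK-OV-3-TR 1 did, and without C13 8 did. The test of the difference itself, resistant minus sensitive, gave 0 of the 32 genes at an unadjusted p under 0.05, against 0.566% of all genes higher and 0.593% lower, and no gene passed adjustment (0%) by edgeR, with 106 higher and 111 lower by unadjusted p and 1 called by DESeq2. EGLN3, a prolyl hydroxylase that is itself induced by hypoxia, had the smallest p at 1.24 (SE 0.664, unadjusted p = 0.0873), on 5 to 379 counts per library. Its counts, vehicle first, were 59 and 19 in HeyA8, 5 and 13 in HeyA8-MDR, 70 and 40 in SK-OV-3, 30 and 29 in SK-OV-3-TR, 79 and 126 in OV2008 and 379 and 319 in C13, and the difference was 0.70 without HeyA8 (unadjusted p = 0.278), 1.81 without OV2008 (unadjusted p = 0.0176) and 1.76 without C13 (unadjusted p = 0.0613). PFKFB3 was next at 0.46 (unadjusted p = 0.1), with 0.60 without C13 (unadjusted p = 0.0496) and 0.31 without HeyA8-MDR (unadjusted p = 0.305). With all lines in the fit, the QC effect in resistant lines minus that in sensitive lines passed the threshold for none of these genes, and for EGLN3 and PFKFB3 this depended on single lines.

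**Figure D3:**
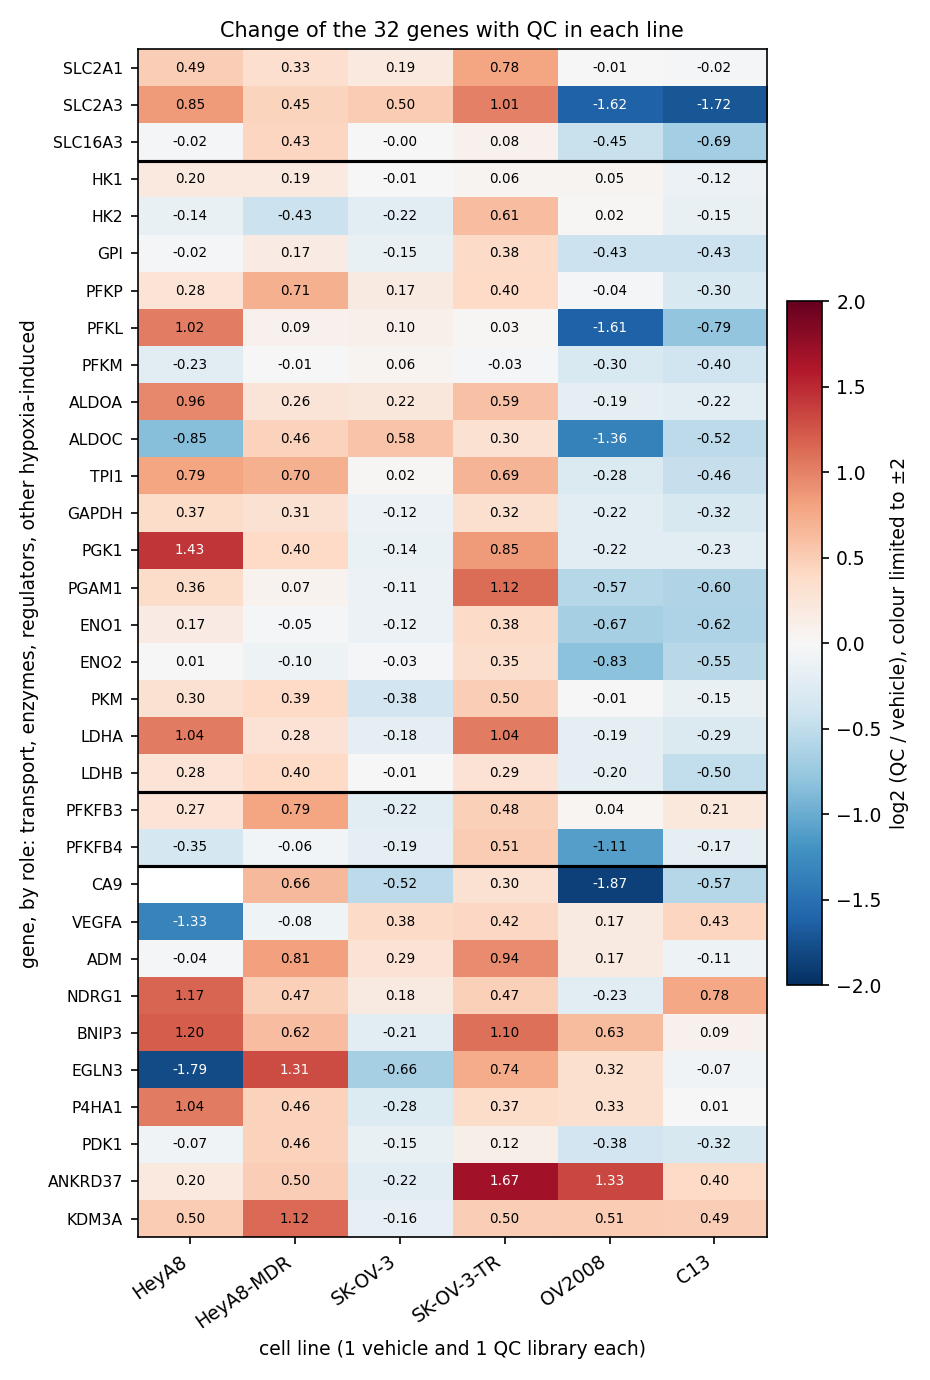
Log2 ratio of QC over vehicle of each of the 32 genes (rows, by role) in each line (columns), with the value written in each cell and the colour limited to ±2. SK-OV-3-TR is red in nearly every row, OV2008 and C13 are blue in the rows of transporters and enzymes, and SK-OV-3 is pale, and the CA9 cell of HeyA8 is blank because its vehicle library had 0 counts.

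Line by line, the 22 glycolytic genes differed in direction between lines. Their median log2 change was 0.276 in HeyA8, 0.295 in HeyA8-MDR and 0.441 in SK-OV-3-TR, -0.021 in SK-OV-3, and -0.253 in OV2008 and -0.36 in C13, beside -0.005 to 0 for all genes. In SK-OV-3-TR 21 of the 22 were higher with QC, and in C13 21 of the 22 were lower, where 47.3% and 47.7% of all genes were higher. All 17 glycolytic enzymes were lower in C13 and 15 of the 17 in OV2008, the exceptions being HK1 and HK2. Lower in both OV2008 and C13 were 19 of the 22 glycolytic genes (86.4%), against 31.9% of all genes, and the 3 others were HK1, HK2 and PFKFB3. All these counts go by sign alone, so changes near 0 are included. Among the lower genes SLC2A1 was at -0.013 in OV2008 and -0.02 in C13, and in OV2008 PKM was at -0.015 and PFKP at -0.037. Higher in both HeyA8-MDR and SK-OV-3-TR were 17 of the 22 (77.3%), against 26.6% of all genes. SK-OV-3 showed the smallest response of all genes, with an SD of log2 change of 0.559 against between 0.606 and 0.826 in the other lines.

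By the sign of their median, the 10 other hypoxia-induced genes parted from the glycolytic genes in OV2008 and C13 only. Their median log2 change was 0.56 in HeyA8-MDR and 0.35 in HeyA8, 0.484 in SK-OV-3-TR and -0.182 in SK-OV-3, and 0.249 in OV2008 and 0.049 in C13. In OV2008, where 19 of 22 glycolytic genes were lower, 7 of these 10 were higher, and in C13 6 of 10 were. VEGFA, the angiogenic growth factor, and BNIP3, P4HA1, ANKRD37 and KDM3A were higher in both lines of that pair, 5 of 10 against 33.2% of all genes and 1 of 22 glycolytic genes. Higher in at least 5 of 6 lines were NDRG1, BNIP3, P4HA1, ANKRD37 and KDM3A, 5 of 10 against 16% of all genes. Like most glycolytic genes, 9 of the 10 (90%) were higher in both HeyA8-MDR and SK-OV-3-TR, against 26.6% of all genes. Set against the glycolytic genes, the median of the other hypoxia-induced genes was higher in 5 of 6 lines, the exception being SK-OV-3, by 0.189 ± 0.249 (SD, n = 6 lines), so the mean gap was smaller than its spread between lines. The HeyA8 median includes CA9, whose ratio rests on 0 vehicle counts. Without CA9 that median would be the value of ANKRD37, 0.2, under the glycolytic 0.276. These medians describe 22 and 10 genes of 6 lines and were not tested.

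**Figure D4:**
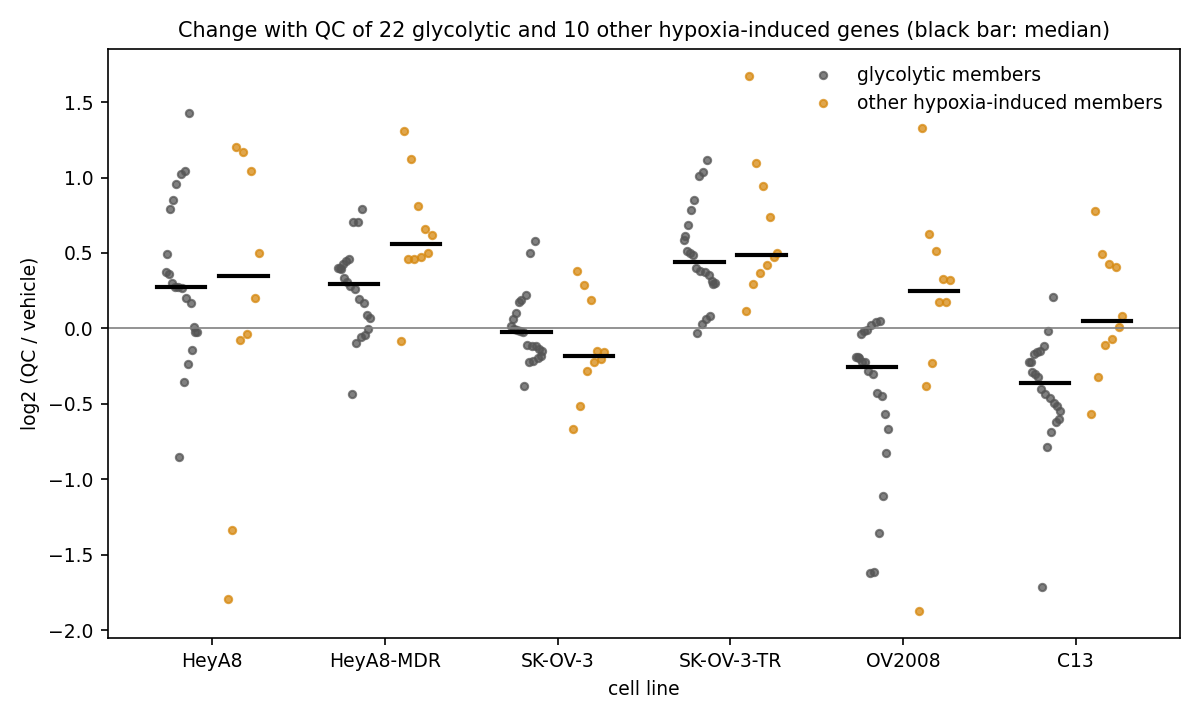
Log2 ratio of QC over vehicle of each gene in each line, grey for the 22 glycolytic and orange for the 10 other hypoxia-induced genes, with black bars at the medians (CA9 in HeyA8, at 0 vehicle counts, is not drawn but enters the median). In OV2008 and C13 the glycolytic medians are -0.253 and -0.36 and the other medians 0.249 and 0.049.

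A fit with a QC term for each parent-derivative pair, 2 lines in each, was added after these values had been seen. In the OV2008 pair 9 of the 32 genes were lower with QC at an unadjusted p under 0.05 and 1, KDM3A, was higher, against 8.69% of all genes lower and 10.2% higher, and 2 passed adjustment, where 2.88% of all genes did. PFKL (ENSG00000141959.17), the liver form of phosphofructokinase, fell from 138 to 45.2 normalized CPM in OV2008 and from 179 to 104 in C13, while it was 198 and 203 in SK-OV-3-TR, 211 and 226 in SK-OV-3, 377 and 400 in HeyA8-MDR and 107 and 217 in HeyA8, vehicle first. Its log2 fold change in the OV2008 pair was -1.20 (SE 0.256, adjusted p = 0.0417 by edgeR's quasi-likelihood test). With QC, PFKL made up 8.56% of phosphofructokinase per kb in OV2008, from 21.1% with vehicle, and 17.3% in C13, from 22.4%. SLC2A3 also passed, at -2.27 (SE 0.492, adjusted p = 0.0428, same test), but on 8 and 2 counts in OV2008, a ratio of 0.197 (95% interval 0.0204 to 0.986), and 17 and 3 in C13, a ratio of 0.2 (95% interval 0.0375 to 0.691). Those intervals cover counting error only, and these lines hold almost no SLC2A3. The gene passed the filter on low counts through the HeyA8 pair, where it had between 2343 and 5718 counts per library.

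The other 7 genes lower in the OV2008 pair were all glycolytic, as are 22 of the 32 genes. TPI1, GAPDH, PGK1, PKM, LDHA and both hexokinases were not among the 7. ENO2 was at -0.68 (SE 0.175, unadjusted p = 0.00302, adjusted p = 0.0683 by edgeR's quasi-likelihood test), from 18.1 to 10.2 normalized CPM in OV2008 and from 35.5 to 24.3 in C13. ALDOC was at -0.90 (SE 0.258, adjusted p = 0.0934, same test), from 11.2 to 4.32 and from 31.4 to 21.9. ENO1, the abundant enolase, was at -0.65 (SE 0.188, adjusted p = 0.0992, same test), from 3042.1 to 1914.8 in OV2008 and from 3240.4 to 2106 in C13. ENO1 is among the most abundant of the 32 genes, so its values rest on at least 43427 counts per library. SLC16A3 (-0.57), PGAM1 (-0.59), the mutase before enolase, GPI (-0.43), the isomerase after hexokinase, and PFKM (-0.35) completed the 9 at an unadjusted p under 0.05. PGAM1 has 13 pseudogenes in the table, with counts equal to 3.32% of its own. GAPDH, used as a reference gene in many assays, went from 6464.8 to 5538.9 in OV2008 and 5380.1 to 4313.1 in C13, and from 8074 to 10443.9 in HeyA8, 12535.7 to 15510 in HeyA8-MDR 2867.5 to 3571.6 in SK-OV-3-TR and 2249.8 to 2073.7 in SK-OV-3, so its own direction differed between lines.

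In the HeyA8 pair 12 of the 32 genes were higher and 1, VEGFA, was lower at an unadjusted p under 0.05, against 9.82% of all genes higher and 9.88% lower, and no gene passed adjustment (0%) by edgeR, with 1838 higher and 1850 lower by unadjusted p. The 12 were SLC2A1 and SLC2A3, the enzymes PFKP, ALDOA, TPI1, PGK1 and LDHA, the regulator PFKFB3, and NDRG1, BNIP3, P4HA1 and KDM3A. PGK1, which makes the first ATP of glycolysis, went from 548 to 1478.8 normalized CPM in HeyA8 and from 2056.2 to 2708 in HeyA8-MDR, and LDHA went from 362 to 746 and from 1077.2 to 1311.5. For both genes the HeyA8 QC level lay between the HeyA8 and HeyA8-MDR vehicle levels, at 61.7% and 53.6% of the way. TPI1, the triose phosphate isomerase, went from 1113.6 to 1925.9 in HeyA8 and from 2141.2 to 3489.3 in HeyA8-MDR, a log2 change of 0.70 in the latter line alone. Without HeyA8 this term rested on HeyA8-MDR alone, whose spread was then taken from the other pairs, so the 5 genes higher at an unadjusted p under 0.05 there, beside 8.45% of all genes, describe that line and are no test of the pair. In the SK-OV-3 pair 3 genes were higher, SLC2A3 (at most 14 counts), SLC2A1 and ADM, against 2.57% of all genes higher and 1.98% lower, and no gene passed adjustment (0%) by edgeR, with 482 higher and 370 lower by unadjusted p. Without HeyA8 in the fit, 7 genes were higher in the SK-OV-3 pair, against 3.54% of all genes.

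**Figure D5:**
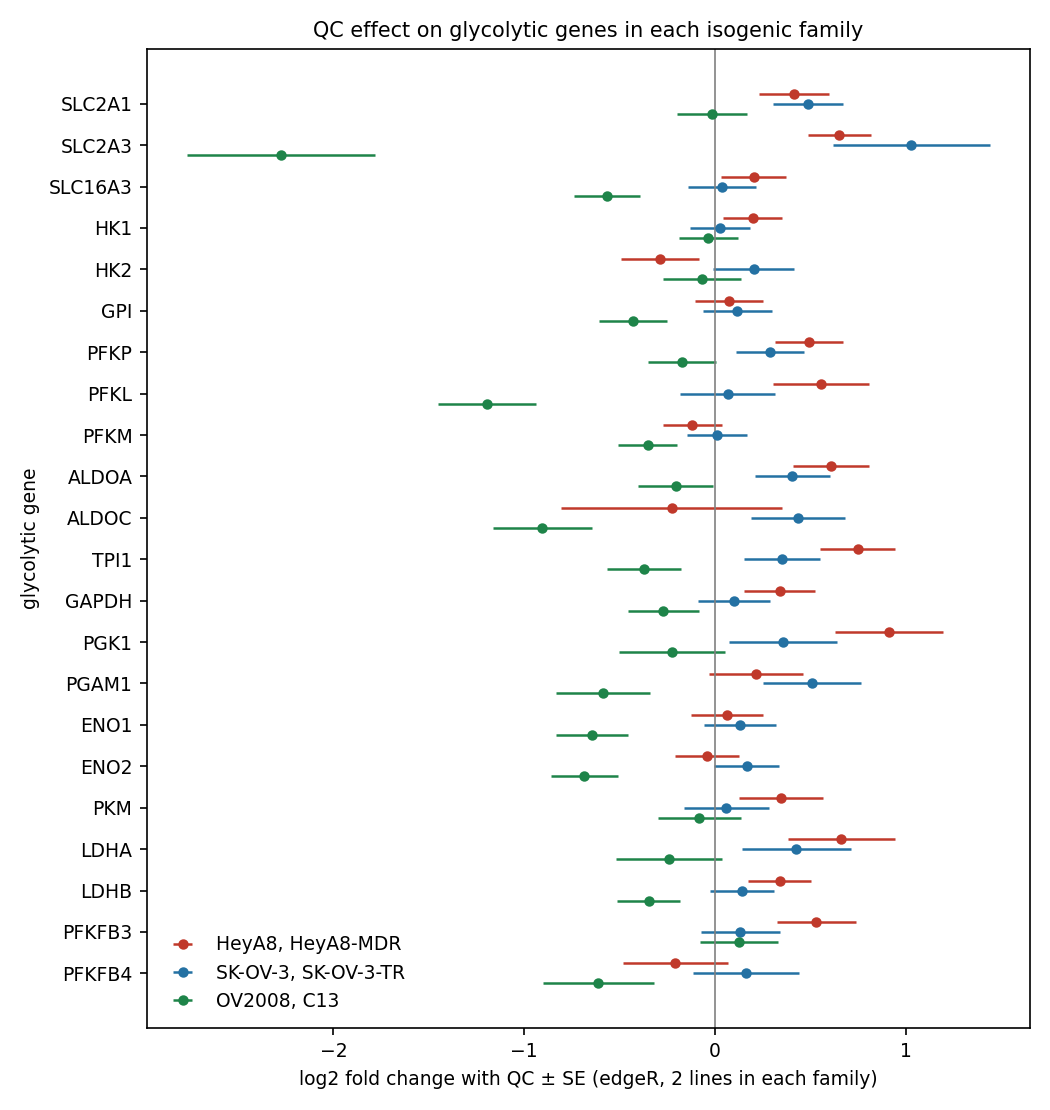
Log2 fold change with QC ± SE of the 22 glycolytic genes in each parent-derivative pair, from edgeR's fit with 1 QC term per pair (2 lines each). The OV2008 pair lies left of 0 for every gene but PFKFB3, with PFKL at -1.20 and SLC2A3 at -2.27, and the HeyA8 pair lies right of 0 for most.

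Whether the QC effect differed among the 3 pairs was tested as such. Of the 32 genes 12 had an unadjusted p under 0.05 (37.5%), against 14% of all genes, with PFKL at 0.00192 and SLC2A3 at 5.75e-04, and no gene passed adjustment (0%) by edgeR, with 2614 genes by unadjusted p. Besides these 2 genes they were ENO1, PGK1, ALDOC, TPI1, ENO2, LDHB, VEGFA, SLC16A3, ALDOA and PGAM1. Of the 12, 11 were glycolytic, as are 22 of the 32 genes. SLC2A3 had at most 17 counts in each library outside the HeyA8 pair. Without HeyA8, HeyA8-MDR alone stood for its pair, so the test among pairs then compared pairs with a single line. Its calls are listed only among the flagged results. The fit without HeyA8, by edgeR's quasi-likelihood test, took its spread from the SK-OV-3 and OV2008 pairs only. In that fit the OV2008 pair had 11 genes lower and 1 higher, against 10.3% of all genes lower and 11.9% higher, and 4 passed adjustment, PFKL (-1.20, adjusted p = 0.00317), SLC2A3 (adjusted p = 0.0165), ALDOC (-0.89, adjusted p = 0.0208) and ENO2 (-0.69, adjusted p = 0.0298), where 8.08% of all genes did. The OV2008 pair is also the pair with low PAX8 and high KRT5 and TP63, and the part of these features in the result was not tested.

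The remaining hypoxia-induced genes did not share a direction. VEGFA went from 682 to 889 normalized CPM in SK-OV-3, from 258 to 346 in SK-OV-3-TR, from 68.5 to 77.3 in OV2008 and from 76.9 to 104 in C13, but from 84.1 to 79.4 in HeyA8-MDR and from 137 to 54.5 in HeyA8. CA9 had 0 counts with vehicle and 22 with QC in HeyA8, at least 6.05-fold higher with QC when 3 counts are taken as the floor, 24 and 34 in HeyA8-MDR, 223 and 153 in SK-OV-3-TR, 108 and 69 in SK-OV-3, 56 and 18 in OV2008 and 181 and 107 in C13. After scaling, CA9 was higher in 3 of 6 lines. PDK1, the kinase that closes pyruvate dehydrogenase and so keeps pyruvate out of mitochondria, stood between 26.4 and 45.6 normalized CPM with vehicle and between 20.2 and 41 with QC, higher in HeyA8-MDR and SK-OV-3-TR and lower in the other 4 lines.

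HIF1A itself was measured among 16 genes of oxygen sensing. With QC it was higher in 6 of 6 lines, from 147 to 233 normalized CPM in HeyA8, from 74.9 to 172 in HeyA8-MDR, from 591 to 661 in SK-OV-3, from 755 to 1172 in SK-OV-3-TR, from 257 to 550 in OV2008 and from 292 to 532 in C13. With DESeq2, which called 518 genes over all 6 lines, the unadjusted p of HIF1A was 7.12e-07. Its log2 fold change was 0.77 (SE 0.143, unadjusted p = 1.51e-04, adjusted p = 0.131 by edgeR's quasi-likelihood test) and lay between 0.67 and 0.89 on leaving out each line. OV2008 and C13, in which glycolytic enzymes were lower, thus had HIF1A log2 changes of 1.10 and 0.86. Antisense transcripts overlap HIF1A, HIF1A-AS3 with between 14 and 1022 counts and HIF1A-AS1 with at most 58, and whether the counting used strand is not given in the sources used here. CUL2, the scaffold of the VHL ligase, was also higher in 6 of 6 lines, by 0.36 (SE 0.125, unadjusted p = 0.013, adjusted p = 0.212, same test), 0.34 without HeyA8 (unadjusted p = 0.0343) and 0.25 without HeyA8-MDR (unadjusted p = 0.0631). In all, 4 of the 16 genes were higher and 2 lower at an unadjusted p under 0.05, against 7.99% and 7.18% of all genes, with a median of 0.12.

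Of 32 further hypoxia-induced genes, 9 were higher and 2 lower at that threshold (7.99% and 7.18% of all genes, as above), with a median of 0.10 beside 0 for all genes. With DESeq2 the unadjusted p of TMEM45A was 0.000203. TMEM45A had a log2 fold change of 1.10 (SE 0.278, unadjusted p = 0.00178, adjusted p = 0.154 by edgeR's quasi-likelihood test), from 7.67 to 36.1 normalized CPM in HeyA8 and from 21 to 69.4 in HeyA8-MDR. It was higher in every line but SK-OV-3, where it went from 4.56 to 3.27, and its log2 fold change was 0.87 without HeyA8 (unadjusted p = 0.0056). BNIP3L, the paralog of BNIP3 with the same role in mitochondrial autophagy, was at 0.48 (SE 0.138, unadjusted p = 0.00474, adjusted p = 0.176, same test), 0.44 without HeyA8 (unadjusted p = 0.0142), and SK-OV-3 was again its only lower line. In neighbouring branches of sugar metabolism 1 of 17 genes of pyruvate and lactate fate was higher and 2 lower, and 1 of 17 genes of the pentose phosphate and side branches was higher and 0 lower, where the shares of all genes would be 7.99% and 7.18%. PCK2, a mitochondrial enzyme that makes phosphoenolpyruvate, was at -0.89 (SE 0.271, unadjusted p = 0.00653, adjusted p = 0.181, same test), lower in 5 of 6 lines, from 48.5 to 13.1 in HeyA8 and from 41.3 to 10 in SK-OV-3-TR, and at -0.68 without HeyA8 (unadjusted p = 0.0236). DLD, the shared dehydrogenase subunit of the pyruvate dehydrogenase complex, was at -0.39 (SE 0.135, unadjusted p = 0.0138, adjusted p = 0.213, same test), lower in 6 of 6 lines but by 0.02 on the log2 scale in each line of the SK-OV-3 pair. Without HeyA8 it was at -0.28 and missed the threshold (unadjusted p = 0.0554).

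TIGAR, a p53-induced phosphatase that lowers the activator of phosphofructokinase, was at 0.75 (SE 0.248, unadjusted p = 0.0102, adjusted p = 0.198 by edgeR's quasi-likelihood test), and at 0.59 without HeyA8 (unadjusted p = 0.0443). It was higher in OV2008 (16.7 to 35.6 normalized CPM), C13 (8.75 to 21.8), HeyA8 (27 to 68.8) and SK-OV-3 (0.627 to 1.27) and lower in HeyA8-MDR (93.2 to 77.7) and SK-OV-3-TR (1 to 0.689), with low levels in both lines of the SK-OV-3 pair. PGLS, of the pentose phosphate pathway, was next of its list at -0.22 (unadjusted p = 0.0727). Of 14 tissue-restricted isozymes 5 passed the filter, and HKDC1, a hexokinase-like gene, was at -0.73 (SE 0.266, unadjusted p = 0.0171) and ENO3, the muscle enolase, at 0.56 (SE 0.232, unadjusted p = 0.0317). Without C13 HKDC1 was at -0.44 (unadjusted p = 0.0613), and without HeyA8 at -0.72 (unadjusted p = 0.031). ENO3 was at 0.57 without HeyA8 (unadjusted p = 0.0497) and missed the threshold without OV2008 (0.38, unadjusted p = 0.107), C13 (0.47, unadjusted p = 0.0967) or HeyA8-MDR (0.54, unadjusted p = 0.0698). HKDC1 was at 302 in SK-OV-3-TR and 116 in SK-OV-3 with vehicle against at most 9.49 in the other 4 lines, while in SK-OV-3-TR HK1 was at its lowest level, 47.3. With QC, HKDC1 was at 233 in SK-OV-3-TR and higher, at 134, in SK-OV-3. In the other 4 lines HKDC1 was lower with QC, all at low levels, from 9.49 to 2.22 in C13 and from 0.728 to 0.176 in OV2008.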

How the data were processed

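RNA was prepared by TRIzol extraction and TruSeq libraries. The deposited values are raw counts of reads per gene that the authors made with HTSeq, without normalization. The methods name TopHat and hg19 for alignment, whereas the submitters' processing notes name STAR 2.7.3a, HTSeq 0.6.1p1 and GRCh38.p13, and this was left unresolved, so no gene coordinates were taken from the counts. IDs were paired with symbols for 58620 of 60669 IDs, which hold 99.87% of counts. Lengths are those of GENCODE canonical transcripts lifted to GRCh37.

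The tests used edgeR 4.0.16, which runs on limma 3.58.1, under R 4.3.3. After filterByExpr over the 4 groups (minimum count 10, minimum total 15), 18720 genes were scaled by TMM and fitted by glmQLFit, and p-values from glmQLFTest had the Benjamini-Hochberg adjustment over all genes. The QC fits held a term for each line (5 residual degrees of freedom with 1 QC term, 4 with 2). The vehicle fit held the parent-derivative pair (2 residual degrees of freedom). Counts at an unadjusted p under 0.05 are given because the study used that threshold. The members and gene lists were chosen with earlier results of these data known. Genes named by rule were the 8 with the smallest p over all lines, 2 for each other contrast, the 4 of widest vehicle range and the isozymes, with 2 of each other list. Levels of some of them are given for part of the libraries only, or not at all. Further genes of the pairs, PDK1, VEGFA and GAPDH were named after their values were seen. Alternatives were DESeq2 1.42.0, other scalings and filters, no block, and leaving out each line. Plots used matplotlib 3.10.9.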

Additional observations from a re-analysis of the deposited data

Results flagged for a closer look

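The log2 change of VEGFA in HeyA8, -1.33, stood farther from the other 5 lines, which lay between -0.08 and 0.43, than Dixon's 95% critical value allows for 6 values. Chance marks about 1 in 20 such sets, and 32 genes were looked at. The HeyA8 QC library is the one that lies between HeyA8 and HeyA8-MDR, but for VEGFA it lay beyond both, at 54.5 normalized CPM against 137 and 84.1 with vehicle.

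In the fit without HeyA8, edgeR's quasi-likelihood test of the QC effect among pairs flagged SLC2A3 (adjusted p = 0.0397) and PFKL (adjusted p = 0.0484). HeyA8-MDR alone then stood for its pair, with no spread of its own, so these values are no test among 3 replicated pairs. When HeyA8 was kept, the adjusted p was 0.125 for SLC2A3 and 0.169 for PFKL, and SLC2A3 had at most 17 counts in each library of the SK-OV-3 and OV2008 pairs.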

How the results depend on the processing

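With single libraries per line and 3 lines per group, the tests had few residual degrees of freedom, and most values here did not pass adjustment. No alternative reversed the direction of a named value: 249 of these values kept their side of the unadjusted threshold, 42 moved above it and 12 moved under it. Genes with an adjusted p under 0.05 over all 6 lines numbered 0 as reported, 518 with DESeq2, 791 without a filter on low counts and 0 to 1 on leaving out each line. In sensitive lines they numbered 31 with DESeq2, 195 without a filter and 0 to 18 on leaving out a line, in resistant lines 35 without a filter, for the difference 1 with DESeq2 and 5 without a filter, and for resistant against sensitive lines with vehicle 47 with DESeq2 and 146 without a filter. Of the 32 genes, those with an unadjusted p under 0.05 over all lines numbered 10 without a filter, 0 without the cell line block and 3 to 8 on leaving out a line. In sensitive lines they numbered 1 with library size in place of TMM, 1 without a filter, 1 with at least 10 counts in every library and 0 to 4 on leaving out a line. In resistant lines they numbered 0 without the block and 0 to 8 on leaving out a line, and for the difference 1 without a filter and 0 to 2 on leaving out a line. With vehicle they numbered 5 without a filter, 1 with at least 10 counts in every library and 0 without the pair as block. In the fit by pairs without HeyA8 they numbered 7 in the SK-OV-3 pair, while HeyA8-MDR alone then stood for its pair. The cause of these shifts was not tested.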
